A study of Mus musculus with 4 samples.

Results

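In the LPC-HRas mouse liver cancer line, 48 genes that were barely detected in control cells were read at clearly higher levels in cells overexpressing UBXN9, and their symbols lie outside the large interferon-regulated gene families. They were picked on the levels themselves. Levels are in CPM, a gene's count divided by its library's column total and scaled to the same sum in all libraries, and a gene was kept when it had at most 1 CPM in both control libraries and at least 2 CPM in both UBXN9 libraries. Symbols of guanylate-binding proteins, immunity-related GTPases, oligoadenylate synthetases, MHC genes, proteasome beta subunits, Ifi, Trim, Schlafen, Apol, Phf11, Serpina3, Sp100-type, Cxcl and Ccl genes and predicted Gm genes were left out, as were Nlrc5, Cd274, Ido1, Pax5 and Ighm. The 48 genes were 0.0865% of the 55487 annotated genes in the table. Because the same 4 libraries chose the genes, the group difference is described for them and not tested.

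RNA was measured in 4 libraries of 1 cell line, 2 of control cells and 2 of UBXN9-overexpressing cells, called control 1, control 2, UBXN9 1 and UBXN9 2. All were left unstimulated and grown in DMEM with serum, and UBXN9 is the UBX-domain protein encoded by Aspscr1. The vector, its promoter, whether the cells were a pool or a clone, and what the control cells carried are not given in the sources used here. Nothing in the labels says that the libraries of a group came from separate cultures, so each p-value reflects the spread among these 4 libraries alone, which may be technical. With 2 libraries a group, the smallest two-sided p of an exact permutation test is 0.333. Totals ran from 21814969 to 26292686 counts, so 1 CPM stood for 21.8 to 26.3 counts.

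Aspscr1 (ENSMUSG00000025142, chromosome 11, 120672973 to 120709447, GRCm38) had 97.8 and 115 CPM in the controls and 361 and 383 CPM in the UBXN9 libraries. The groups did not overlap, and the rise was 3.72-fold (log2 fold change 1.90, SE 0.18, edgeR adjusted p = 0.00144). Of 10 hepatocyte markers 8 stayed under 1 CPM in every library, and Alb, Tat, F2 and Serpina1a had 0 counts. Sox9 and Spp1, markers of bile duct and progenitor cells, were abundant, at 174 to 210 CPM and 2187 to 3017 CPM. In RNA from whole cultures, a change in the number of cells that express a gene and a change in RNA per cell cannot be told apart.

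A cell holds most of its genes near silence, and a gene can leave that state when activators bind its promoter or when its chromatin opens. Interferons act through STAT and IRF proteins, which bind a response element named ISRE or a site named GAS, while inflammatory cytokines such as TNF act largely through NF-kB. In the liver these routes serve the defence of epithelial cells against viruses, the acute-phase response and the cross-talk of damaged cells with macrophages and stellate cells.

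The promoters of some of the 48 genes carry these motifs, and 5 of them are shown because an ISRE core or NF-kB motif lies within 100 bases before a RefSeq start of the gene. Each line gives the 100 bases before the start, read 5′ to 3′ on the gene's strand, from the RefSeq promoter table on GRCm38.p6, with the match in capitals. For Cybb the window is chrX:9469325-9469424 on the minus strand, for Coro2a chr4:46566441-46566540 on the minus strand, and for Slamf8 chr1:172590569-172590668 on the minus strand, and in these 3 the capitals mark the ISRE core. For Il6 it is chr5:30013014-30013113 and for Tnip3 chr6:65590298-65590397, both on the plus strand, and the capitals mark an NF-kB motif. The RefSeq starts of Cybb, Coro2a and Tnip3 lie inside the GENCODE M21 bounds of these genes, and those of Slamf8 and Il6 at their edge.
Cybb: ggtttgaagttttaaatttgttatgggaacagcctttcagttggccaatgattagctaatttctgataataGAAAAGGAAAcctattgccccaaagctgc
Coro2a: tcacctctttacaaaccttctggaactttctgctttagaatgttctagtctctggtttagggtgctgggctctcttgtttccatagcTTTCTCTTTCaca
Slamf8: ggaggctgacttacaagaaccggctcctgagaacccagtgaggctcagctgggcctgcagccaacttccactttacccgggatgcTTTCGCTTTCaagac
Il6: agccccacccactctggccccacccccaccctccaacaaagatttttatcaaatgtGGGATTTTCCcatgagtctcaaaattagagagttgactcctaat
Tnip3: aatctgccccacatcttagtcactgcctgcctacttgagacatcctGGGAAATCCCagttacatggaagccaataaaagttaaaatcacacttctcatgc

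RefSeq promoters, 250 bases before to 50 bases after the start, were found for 30 of the 48 genes. The 18 others were not scanned, and Batf2, Gvin1, A230050P20Rik, Csprs and Cfb are among them. The shares below thus leave out several interferon-linked genes of the 48. A gene with several starts counted once if any of its promoters held the motif on either strand. The ISRE core (TTTC, any 2 bases, TTTC, on either strand) was present in 4 of these 30 (13.3%), in 11 of 24 genes of the excluded families that passed the same CPM thresholds (45.8%) and in 3.99% of all 27025 genes with a promoter. The 4 genes were Cybb, Coro2a, Slamf8 and 9930111J21Rik1, and the Cybb promoter held 3 matches, of which the one printed lies nearest the start. The NF-kB motif was found in 7 of 30 promoters (23.3%), in 1 of 24 of the excluded families (4.17%) and in 9.55% of all genes. The share was 12.4% in genes deep enough to test and 8.30% in genes at or under 1 CPM in both controls. Those 7 were Sept4, Il6, Clcn1, Nlrp3, Tnip3, Slamf8 and 9330175E14Rik, so the Slamf8 promoter held both motifs, which do not overlap. The GAS motif (TTC, any 3 bases, GAA) was found only in Serpinb2 among the 30 (3.33%, sequence not shown), against 9.55% of all genes. The share of CpG in the promoter had a median of 2.84% in the 30 genes, 7.36% in genes deep enough to test and 1.34% in genes at or under 1 CPM in both controls. These matches describe letters in a fixed window and are not binding sites.

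The 48 genes together summed to 26.6 and 21.8 CPM in the controls and to 298 and 339 CPM in the UBXN9 libraries. They were low, not empty, in control cells, since 1 of the 48 had 0 counts in both controls and 16 were under 0.5 CPM in both. In 10 genes both UBXN9 libraries exceeded 10 CPM, in 17 both exceeded 5 CPM, and in 31 the lower UBXN9 library was between 2 and 5 CPM. The lower UBXN9 library was 2.12 to 68.7 times the higher control library, with a median of 7.27, in the 47 genes with control counts. The groups are separate in every one of the 48 by construction. Both UBXN9 libraries lay above both controls in 2694 of the 13230 genes deep enough to test, which is 20.4%, and below both in 33.4%.

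**Figure D1:**
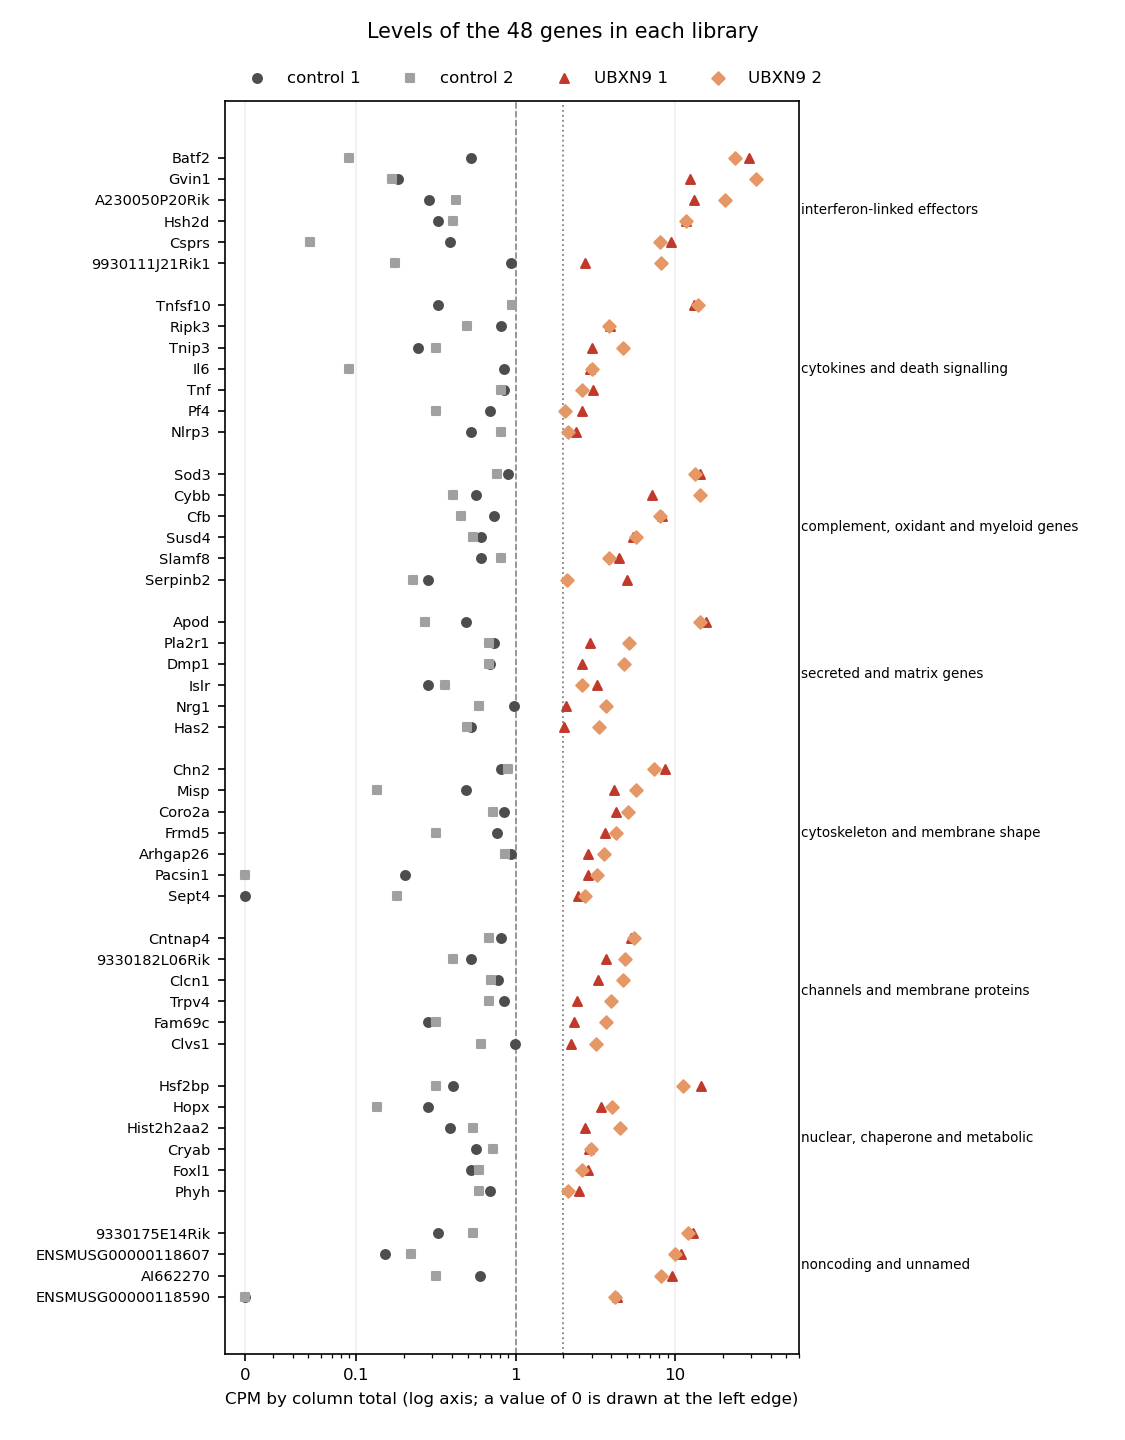
Level of each of the 48 genes in the 4 libraries, in CPM by column total on a log axis, grouped by role, with dashed and dotted lines at the thresholds of 1 and 2 CPM. Every control point lies at or left of 1 CPM, and Batf2 and Gvin1 reach furthest to the right, at 29.1 and 32.2 CPM.

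Before the exclusion by symbol 88 genes passed the thresholds, 0.159% of annotated genes and 0.203% of the 43439 genes at or under 1 CPM in both controls. The 40 removed belonged to the excluded families, and among them Psmb9, an immunoproteasome subunit, stood highest at 89.1 and 70.5 CPM in the UBXN9 libraries. The same thresholds turned around, at most 1 CPM in both UBXN9 libraries and at least 2 CPM in both controls, held for 41 genes with the same exclusions (0.0739%), and for 44 without them (0.0793%). Of the 48, 44 were protein coding and 2 were long noncoding RNAs, while 2 had an identifier only and were not in GENCODE M21. The protein-coding share was 91.7%, against 90.2% in the genes deep enough to test and 24.8% in genes at or under 1 CPM in both controls. It was 70.0% in the 40 genes removed by symbol. The symbol rule, which drops predicted Gm genes, was not applied to either comparison set, so the 91.7% depends in part on that rule.

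**Figure D2:**
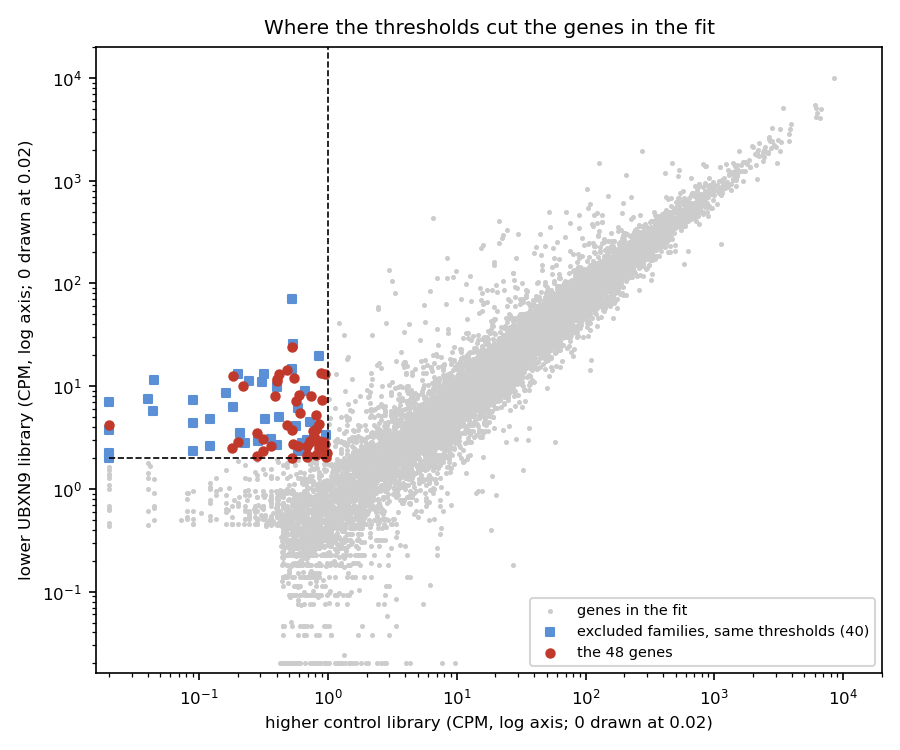
Lower UBXN9 library against higher control library for each gene deep enough to test, both in CPM on log axes, with dashed lines at 1 and 2 CPM. The 48 genes and the 40 genes of excluded families fill the same upper left corner, and several of the 48 sit against its edges.

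Margins at the thresholds were small. Clvs1, Has2, Nrg1 and Pf4 were closest to a threshold from inside: Clvs1, a lipid-binding protein of clathrin-coated vesicles, had 0.992 CPM in control 1. Has2 had 2.02 CPM in UBXN9 1, and Pf4 had 2.05 CPM in UBXN9 2. Outside, Apba1 (0.973, 0.452, 2.25 and 1.98 CPM in control 1, control 2, UBXN9 1 and UBXN9 2) and Car6 (0.729, 0.542, 2.02 and 1.98 CPM) missed by 1 library. Tmem246 missed in the same way, reaching 1.97 CPM in UBXN9 1 but 2.70 CPM in UBXN9 2. Genes just inside and just outside thus had nearly equal levels.

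The highest levels were found in genes of the interferon response that the symbol rule had not removed. Batf2, a leucine zipper transcription factor of the AP-1 family (chromosome 19, 6140983 to 6172476), had 0.527 and 0.0903 CPM in the controls and 29.1 and 23.9 CPM in the UBXN9 libraries. Its control reads were 13 and 2, and its mean in UBXN9 cells was 26.5 ± 3.63 CPM (SD, n = 2). Gvin1, a very large interferon-induced GTPase (chromosome 7, 106156556 to 106215326), had 0.182 and 0.168 CPM in the controls and 12.5 and 32.2 CPM in the UBXN9 libraries. For Gvin1 UBXN9 2 stood above UBXN9 1 by 1.36 on the log2 scale. Gm4070, a gene of the same family that was removed by its symbol, had 0.182, 0.149, 6.26 and 25.5 CPM in the same order. The 2 are close copies, and how reads were shared between them is not given in the sources used here.

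A230050P20Rik, listed as Shfl in RefSeq and known as an inhibitor of ribosomal frameshifting in viruses, had 0.286 and 0.421 CPM in the controls and 13.3 and 20.7 CPM in the UBXN9 libraries. Hsh2d, an SH2-domain adaptor of blood cells, had 0.324 and 0.406 CPM in the controls and 11.7 CPM in each UBXN9 library. Its UBXN9 libraries were nearly equal. Csprs, a member of a multicopy family related to Sp100, lies on the unplaced scaffold GL456221.1 and had 0.389, 0.0515, 9.44 and 8.04 CPM in control 1, control 2, UBXN9 1 and UBXN9 2. The GTPase gene 9930111J21Rik1 was the least even of these, with 0.943 and 0.175 CPM in the controls and 2.75 and 8.23 CPM in the UBXN9 libraries. Gm12185, Psme2b and Olfr56 overlap it, and its copy 9930111J21Rik2 had 0.413, 0.238, 1.81 and 6.22 CPM, so the level of each copy is uncertain.

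On a fixed list of interferon-induced genes outside the excluded families, 4 of the 48 appeared, namely Batf2, Gvin1, Tnfsf10 and 9930111J21Rik1. Exclusion by symbol thus left interferon-induced genes among the 48. Of the 86 other genes of that list deep enough to test, 74 rose and 0 fell, and their median log2 fold change was 2.04. At an unadjusted edgeR p under 0.05, 83 were higher and 1 was lower, and DESeq2 called 78 higher and 0 lower. Over all 13230 genes tested 984 changed (7.44%), of which 669 rose (5.06%) and 315 fell (2.38%), with a median of -0.0056. Tap1, the peptide transporter of antigen presentation, rose 80.2-fold (6.52, 5.78, 490 and 432 CPM in control 1, control 2, UBXN9 1 and UBXN9 2, SE of the log2 change 0.22, edgeR adjusted p = 0.00022). Parp12, an ADP-ribosyltransferase, and Xdh, the enzyme that makes uric acid, rose 25.5-fold and 16.8-fold with the same adjusted p from edgeR. The genes set beside Batf2, called its partners here, were its relatives Batf and Batf3 and genes of the Irf, Jun and Fos families. Among these, Irf1 rose 3.67-fold (122, 115, 426 and 385 CPM, edgeR adjusted p = 0.00136). Junb rose 1.83-fold (edgeR adjusted p = 0.0448), a call lost without control 1 (adjusted p = 0.435) and without control 2 (0.144), with a range of 2.16e-05 to 0.435 over the alternatives. Irf8 had 0.648, 0.677, 0.0917 and 0.0380 CPM, 0.108 of its control level, and Batf had 6.73, 6.10, 3.03 and 1.64 CPM, 0.39 of its control level. Neither passed (edgeR adjusted p = 0.0523 and 0.0831), nor did Jun at 1.55-fold (0.0504), Batf3, Jund or Fos, and Irf4 had 0 counts. Of the 8 partners tested 2 were higher and 0 lower, against 3 and 2 without UBXN9 1, 3 and 1 without UBXN9 2, and 1 and 0 without either control. DESeq2 called 3 and 0, and at an unadjusted edgeR p under 0.05 the counts were 3 and 2.

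Cytokines, death ligands and their signalling proteins made up 7 of the 48. Tnfsf10, which encodes the death ligand TRAIL (chromosome 3, 27317028 to 27342427), had 0.324 and 0.948 CPM in the controls and 13.2 and 14 CPM in the UBXN9 libraries. The other 6 stayed at or below 4.75 CPM. Il6, the acute-phase cytokine (chromosome 5, 30013114 to 30019981), had 0.851 and 0.0903 CPM in the controls and 2.93 and 3.04 CPM in the UBXN9 libraries. The UBXN9 libraries agreed closely for Il6, while control 1 held 21 reads and control 2 held 2. Tnf, the inflammatory cytokine, had 0.851 and 0.813 CPM in the controls and 3.07 and 2.62 CPM in the UBXN9 libraries, a ratio of mean CPM of 3.42. Pf4, a chemokine of platelets, had 0.689, 0.316, 2.61 and 2.05 CPM in control 1, control 2, UBXN9 1 and UBXN9 2.

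Tnip3, an A20-binding inhibitor of NF-kB that carries the NF-kB motif printed above, had 0.243 and 0.316 CPM in the controls and 3.03 and 4.75 CPM in the UBXN9 libraries. Ripk3, the kinase of necroptosis, had 0.810 and 0.497 CPM in the controls and 3.94 and 3.84 CPM in the UBXN9 libraries. Nlrp3, the sensor of the best-known inflammasome, was among the lowest of the 48, with 0.527, 0.813, 2.38 and 2.13 CPM. Of these 3 the gap was narrowest for Nlrp3, whose lower UBXN9 library was 2.62 times the higher control.

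The pathways around these genes were only partly higher. Of 15 genes of TNF and IL-6 signalling tested, 2 rose and 0 fell: Tnip1 rose 1.93-fold (edgeR adjusted p = 0.02) and Relb 1.59-fold (0.0407). DESeq2 called 3 higher and 0 lower, and at an unadjusted edgeR p under 0.05 the counts were 4 and 0. Both edgeR calls were lost without control 1 (adjusted p = 0.169 for Tnip1 and 0.44 for Relb) and without control 2 (0.0843 and 0.363), and Relb also missed with no composition factor (0.0656), with ranges over the alternatives of 1.08e-07 to 0.169 and 0.000521 to 0.44. The receptors Tnfrsf1a (200, 199, 192 and 212 CPM in control 1, control 2, UBXN9 1 and UBXN9 2) and Il6st (88.8, 68.2, 76.9 and 113 CPM) were abundant and did not pass. Of 6 necroptosis genes 2 rose, Zbp1, which senses Z-form nucleic acid, 23.8-fold (21.5, 18, 476 and 401 CPM, edgeR adjusted p = 0.00022) and Mlkl, the pore-forming target of Ripk3, 3.29-fold (62.8, 54.2, 174 and 186 CPM, edgeR adjusted p = 0.00113).

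Of 5 inflammasome partners deep enough to test, Casp1 rose 14.8-fold (0.122, 0.0452, 1.05 and 1.45 CPM, edgeR adjusted p = 0.0141) and Casp4 rose 2.26-fold (0.0467). Without control 2 the adjusted p was 0.103 for Casp1 and 0.286 for Casp4, and the alternatives ranged from 1.1e-05 to 0.103 and from 5.99e-08 to 0.286. Casp4 also missed with no composition factor (0.119) and with a filter of 5 CPM (0.0575). Pycard, the adaptor between Nlrp3 and Casp1, had at most 0.114 CPM, Il1b at most 0.183 CPM and Il18 at most 0.504 CPM in any library. Of the TRAIL receptors and their signal, 8 genes tested, Tnfrsf11b, the decoy receptor osteoprotegerin, rose 6.5-fold (0.365, 0.226, 1.33 and 2.36 CPM, edgeR adjusted p = 0.0245) and Bid rose 1.66-fold (0.0352). The death receptor Tnfrsf10b, at 21.3 to 29.1 CPM, did not pass. Tnfrsf22 had 51.3, 41.4, 21.1 and 37.0 CPM in control 1, control 2, UBXN9 1 and UBXN9 2. Tnfrsf23 had 56.5, 54.7, 29.8 and 41.7 CPM. At 0.662 and 0.682 of their control levels, neither passed (edgeR adjusted p = 0.224 and 0.133). At an unadjusted edgeR p under 0.05, 2 of the 8 genes were higher and 2 were lower. Tnfrsf11b missed without control 2 (adjusted p = 0.136) and with no composition factor (0.0562), in a range from 3.01e-05 to 0.136. Bid missed without either control (0.331 and 0.333) and with no composition factor (0.0552), in a range from 0.000356 to 0.333.

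Wider families were read from fixed lists. Among cytokines, TNF superfamily ligands and their receptors, 43 genes that are not among the 48 were tested, of which 9 rose and 3 fell. Their median log2 fold change was 0.55. The count of higher and lower genes was 4 and 0 without control 1, 2 and 0 without control 2, 19 and 4 without UBXN9 1, and 17 and 6 without UBXN9 2. Tnfsf9, the ligand of 4-1BB, rose 2.66-fold (edgeR adjusted p = 0.0122, and 0.0689 without control 2, in a range of 3.86e-07 to 0.0689). Il4ra fell to 0.546 of its control level (edgeR adjusted p = 0.0193) and Il27ra to 0.109 (0.0202), and both missed without control 1 (0.0572 and 0.14) and without control 2 (0.243 and 0.0843). Their ranges were 7.28e-05 to 0.243 and 0.000197 to 0.14. Of 22 pattern recognition receptors, inflammasome genes and inflammatory caspases 12 rose and 0 fell, with a median of 1.60, among them Dhx58, a RIG-I-like receptor, 5.6-fold (edgeR adjusted p = 0.000448), and Nod1, a sensor of bacterial peptidoglycan, 4.23-fold (0.000833). DESeq2 also called 12 higher and 0 lower, and 2 were lower at an unadjusted edgeR p under 0.05.

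**Figure D3:**
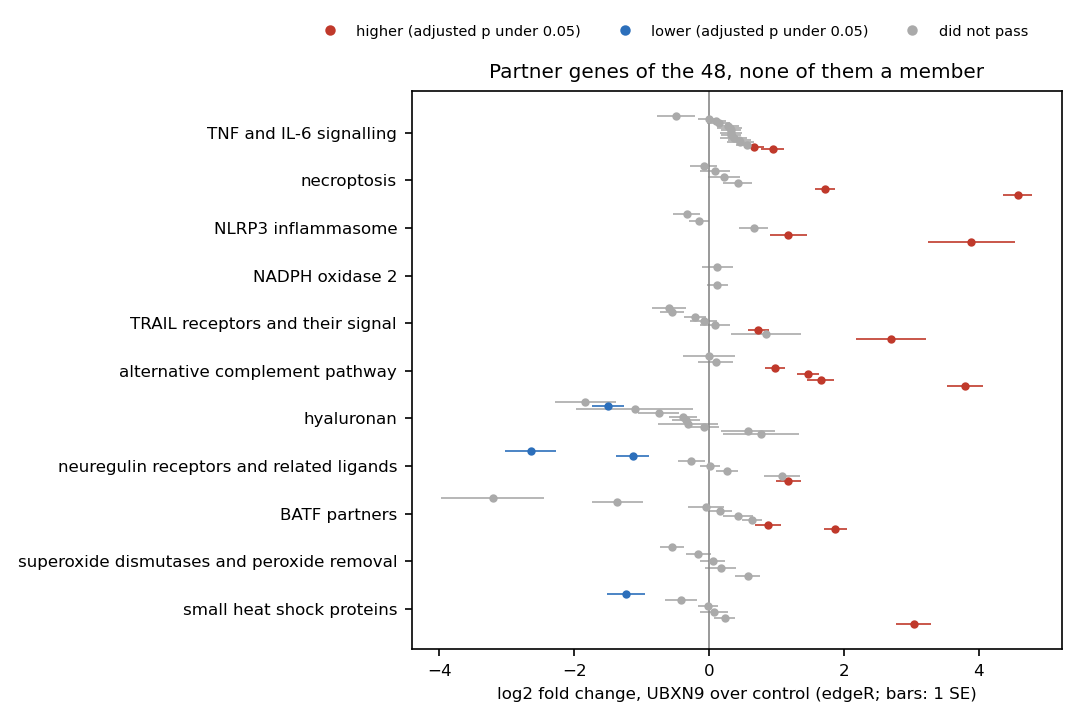
Log2 fold change with 1 SE (edgeR, UBXN9 over control) of the partner genes of the 48, one row of points per pathway, coloured by the test at an adjusted p of 0.05. Zbp1 reaches furthest to the right, and the hyaluronan row holds 1 lower gene and no higher one. The complement row, which mixes genes of the classical and alternative pathways, holds 4 higher genes of 6.

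Complement and oxidant genes formed another group. Cfb, the protease of the alternative complement pathway (chromosome 17, 34856374 to 34862518), had 0.737 and 0.457 CPM in the controls and 8.30 and 8.09 CPM in the UBXN9 libraries. Gm20547 overlaps it on the same strand and stayed at 3.16 to 4.37 CPM in all libraries. Susd4, a membrane protein that limits complement, had 0.608 and 0.542 CPM in the controls and 5.45 and 5.67 CPM in the UBXN9 libraries. In both genes the UBXN9 libraries were close to each other. Of 6 complement partners tested, the classical pathway genes C4b, C1ra and C1s1 rose 13.9-fold, 2.76-fold and 3.15-fold (edgeR adjusted p = 0.000484, 0.00284 and 0.00431). C4b had 1.16, 1.08, 13.2 and 16.4 CPM. C3, the substrate of the alternative pathway, rose 1.97-fold (edgeR adjusted p = 0.0121), while Cfp and Hc did not pass. The C3 call was lost without control 1 (adjusted p = 0.0532) and without control 2 (0.168), in a range of 3.27e-06 to 0.168. Cfd and Cfi, proteases of the alternative pathway, had at most 1 count in any library. On the whole fixed list of complement and coagulation genes 5 of 21 rose and 1 fell, around a median of 0.0013 on the log2 scale. The counts without control 2 were 3 and 0, and those without UBXN9 2 were 9 and 3.

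Cybb, the membrane subunit of the phagocyte NADPH oxidase (chromosome X, 9435252 to 9487771), had 0.567 and 0.406 CPM in the controls and 7.15 and 14.4 CPM in the UBXN9 libraries. UBXN9 2 was higher than UBXN9 1 by 1.01 on the log2 scale. Its membrane partner Cyba was abundant in all libraries (192, 224, 243 and 179 CPM) and did not pass. The cytosolic subunits Ncf1 and Ncf4 and the GTPase Rac2 stayed at or below 0.321 CPM in every library. Sod3, the extracellular superoxide dismutase (chromosome 5, 52363791 to 52371418), had 0.891 and 0.768 CPM in the controls and 14.4 and 13.4 CPM in the UBXN9 libraries. Sod1, Sod2, Ccs, Cat and Gpx1, the other superoxide and peroxide enzymes on the list, did not pass.

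Slamf8, a surface receptor of macrophages, had 0.608 and 0.813 CPM in the controls and 4.45 and 3.84 CPM in the UBXN9 libraries. Serpinb2, the plasminogen activator inhibitor of monocytes, had 0.284 and 0.226 CPM in the controls and 5.00 and 2.09 CPM in the UBXN9 libraries, the only one of the 48 with more than 2-fold the level in UBXN9 1. Since Cybb, Slamf8 and Hsh2d are best known from blood cells, the markers of such cells are given beside them. Of 12 lymphoid markers all stayed under 1 CPM, with sums of 0.0810, 0.181, 0.367 and 0.190 CPM, and Cd3e had 0 counts in all libraries. Of 10 myeloid markers 6 stayed under 1 CPM in every library, and the summed level was 60.1, 56.9, 68.3 and 66.7 CPM, most of it Cd14. Clec4f had 0 counts in all libraries, Adgre1 had 4 counts in UBXN9 1 and 0 elsewhere, and Itgam had at most 5.8 counts. Csf1r had 11.8, 14.2, 56.2 and 8.5 counts and did not pass, while Lyz2 rose (29, 14, 63 and 82 counts, edgeR adjusted p = 0.0408), a call lost without control 2 (0.283) and with no composition factor (0.0797), in a range of 0.000308 to 0.283. Among immune-cell surface receptors 5 of 22 rose and 1 fell (3 and 1 without either control, 7 and 2 without UBXN9 1, 9 and 1 without UBXN9 2). They included Cd274, which encodes PD-L1 and rose 12.3-fold (edgeR adjusted p = 0.00519), and Ms4a4d (0 and 0 CPM in the controls, 1.33 and 0.989 CPM in the UBXN9 libraries, 0.0122). Selp, which encodes P-selectin, fell to 0.215 of its control level (0.00476).

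Secreted and matrix genes numbered 6. Apod, a lipid carrier of the lipocalin family (chromosome 16, 31296192 to 31314808), had 0.486 and 0.271 CPM in the controls and 15.7 and 14.5 CPM in the UBXN9 libraries. Its UBXN9 mean of 15.1 ± 0.866 CPM (SD, n = 2) was 39.8 times the control mean. Pla2r1, a receptor of secreted phospholipases, had 0.729, 0.677, 2.91 and 5.17 CPM, and Dmp1, a mineral-binding matrix protein, had 0.689, 0.677, 2.61 and 4.79 CPM. In both the higher value was that of UBXN9 2. Islr, a marker of mesenchymal cells, had 3.25 CPM in UBXN9 1 and 2.62 CPM in UBXN9 2, against 0.284 and 0.361 CPM in the controls. Markers of stellate cells and fibroblasts summed to 594, 499, 582 and 756 CPM. Of the 7 tested, 2 rose, Col1a1 (32.1, 24.7, 101 and 145 CPM) and Acta2 (18.8, 17.7, 43.0 and 39.3 CPM). Their part in the level of Islr was not tested.

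Has2, a hyaluronan synthase, had 0.527 and 0.497 CPM in the controls and 2.02 and 3.35 CPM in the UBXN9 libraries. Its paralog Has1 fell to 0.354 of its control level (10.7, 10.9, 3.48 and 3.69 CPM, edgeR adjusted p = 0.0127). Without control 2 the adjusted p of Has1 was 0.075, in a range of 9.5e-06 to 0.075. The other 9 hyaluronan genes, Has3 and Cd44 among them, did not pass. The count of lower hyaluronan genes was 4 without UBXN9 1 and without UBXN9 2, 1 without control 1 and 0 without control 2, and none was higher in these fits. Nrg1, the ErbB ligand neuregulin, had 0.973 and 0.587 CPM in the controls and 2.06 and 3.69 CPM in the UBXN9 libraries, the narrowest gap of the 48 at 2.12 times. Its receptor Erbb3 fell to 0.16 of its control level (7.05, 7.45, 0.688 and 1.48 CPM, edgeR adjusted p = 0.008), and Erbb4 had 0 counts. Egfr rose 2.25-fold (43.2, 33.5, 69.5 and 92.9 CPM, edgeR adjusted p = 0.0122), and its ligand Areg fell to 0.456 (0.0356). Both missed without control 2, with adjusted p = 0.0961 for Egfr (range 4.37e-10 to 0.0961) and 0.224 for Areg (range 9.51e-08 to 0.224).

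Genes of the cytoskeleton and of membrane shape made up 7 of the 48. Chn2, a Rac-inactivating chimaerin (chromosome 6, 54039554 to 54301810), had 0.810 and 0.903 CPM in the controls and 8.70 and 7.38 CPM in the UBXN9 libraries. Misp, which positions the mitotic spindle, had 0.486, 0.135, 4.17 and 5.67 CPM, and Coro2a, a coronin that binds actin, had 0.851, 0.722, 4.26 and 5.06 CPM. The Coro2a promoter shown above, with the ISRE core, belongs to a start inside the gene. Frmd5, a FERM-domain adaptor, had 0.770, 0.316, 3.62 and 4.30 CPM. Of these 4, Chn2 alone was higher in UBXN9 1. Arhgap26, a RhoA-inactivating protein, Pacsin1, which bends membranes in endocytosis, and Sept4, a septin, lay between 2.48 and 3.61 CPM in the UBXN9 libraries. Another entry with the symbol Arhgap26 overlaps the first on the same strand. It had 0.401, 0.316, 0.450 and 0.545 CPM in control 1, control 2, UBXN9 1 and UBXN9 2. Pacsin1 had 0 counts in control 2 and Sept4 had 0 counts in control 1.

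Channels and other membrane proteins were low in both groups, and UBXN9 2 stood above UBXN9 1 in 6 of 6. It did so in 7830 of the 13230 genes tested. Cntnap4, a neuronal adhesion protein of the neurexin family (chromosome 8, 112570043 to 112882717), had 0.810 and 0.677 CPM in the controls and 5.27 and 5.51 CPM in the UBXN9 libraries. Clcn1, the chloride channel of skeletal muscle, had 0.777, 0.697, 3.31 and 4.75 CPM, and its opposite-strand neighbour Fam131b overlaps it at 34.9, 31.8, 49.5 and 50.1 CPM. Trpv4, a calcium-permeable channel that senses osmotic and mechanical stress, had 0.851, 0.677, 2.43 and 3.96 CPM. Of these 3, Cntnap4 was the most even between the UBXN9 libraries. 9330182L06Rik, listed as Elapor2 in RefSeq, had 0.527, 0.406, 3.71 and 4.87 CPM, and Fam69c, listed as Dipk1c, had 2.34 and 3.69 CPM in the UBXN9 libraries. Clvs1 had 0.992, 0.609, 2.22 and 3.20 CPM, and is overlapped on the other strand by Asph, at 64.3 to 89.7 CPM, and by Gm11816. Gm11816 had 3.53, 2.48, 7.52 and 8.60 CPM and rose 2.86-fold (edgeR adjusted p = 0.0199), a call lost without control 2 (0.171) and with no composition factor (0.0544), in a range of 1.12e-05 to 0.171. Reads of Clvs1 and its overlapping genes cannot be told apart without a stated use of strand. Of 38 other ion channel genes tested 3 rose and 4 fell, around a median of -0.21 on the log2 scale. The 3 with the smallest p were all lower: Ano1 fell to 0.0706, Grik5 to 0.368 and Cacna1g to 0.238 of the control level (edgeR adjusted p = 0.00446, 0.00849 and 0.0146). Without either control 0 rose, while 3 fell without control 1 and 4 without control 2. Without UBXN9 1 the counts were 4 higher and 6 lower, and without UBXN9 2 they were 3 and 7.

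Nuclear, chaperone and metabolic genes completed the coding set. Hsf2bp, a protein of meiotic recombination that binds BRCA2 (chromosome 17, 31944769 to 32036349), had 0.405 and 0.316 CPM in the controls and 14.5 and 11.2 CPM in the UBXN9 libraries. Rrp1b overlaps it on the opposite strand, at 82.2 and 78.2 CPM in the controls and 52.5 and 60.5 CPM in the UBXN9 libraries. Hopx, a homeodomain protein without DNA binding, had 0.284, 0.135, 3.46 and 4.02 CPM. Foxl1, a forkhead factor of mesenchyme, Cryab, a small heat shock protein, and Phyh, a peroxisomal enzyme that breaks down branched fatty acids, lay between 2.13 and 2.97 CPM in the UBXN9 libraries. Foxl1 is overlapped on its own strand by Gm20388, at 62.5 to 91.8 CPM. Of 6 genes of small heat shock proteins and their regulators tested, Hspb8 rose 8.19-fold (2.51, 2.26, 19.7 and 16.8 CPM, edgeR adjusted p = 0.000909) and Hspb1 fell to 0.425 (0.0456). The Hspb1 call was lost without control 1 (adjusted p = 0.184), without control 2 (0.22) and with no composition factor (0.0691), in a range of 0.00121 to 0.22.

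Hist2h2aa2, a replication histone H2A gene (chromosome 3, 96239749 to 96240276), had 0.387 and 0.540 CPM in the controls and 2.72 and 4.51 CPM in the UBXN9 libraries. Its copy Hist2h2aa1 had 1.08, 2.48, 1.27 and 1.29 CPM and did not pass. Reads cannot be assigned surely between the 2 copies. The other replication histones summed to 79.1, 97.0, 85.9 and 85.2 CPM, and 0 of 21 tested passed with edgeR or with DESeq2. At an unadjusted edgeR p under 0.05, 1 of the 21 was higher and 0 were lower. The adjusted count was 3 higher of 31 without UBXN9 1, 1 of 20 without UBXN9 2, and 0 without either control. Histone RNA carries no poly-A tail, and RNAs of that kind from other families summed to 7.15, 6.92, 13.2 and 115 CPM, the highest in UBXN9 2. These RNAs were counted by identifier. Rn7s1 and Rn7s2 had the same counts (43.6, 35.0, 51.9 and 791.5 in control 1, control 2, UBXN9 1 and UBXN9 2), and both enter the sum. Rmrp had more than 1 identifier, so the RNAs tested were not all distinct. Of 6 such RNAs tested only Rn7sk was called, as higher (1.78, 2.30, 5.04 and 26.6 CPM, edgeR adjusted p = 0.0488), and it missed with no composition factor (0.101) and with a filter of 5 CPM (0.0611), in a range of 1.97e-41 to 0.101. Its fold of 8.04 was 2.75 without UBXN9 2 and 13.3 without UBXN9 1. DESeq2 called 4 of 6 higher, and the counts were 9 of 9 without UBXN9 1, 1 of 5 without UBXN9 2 and 6 of 9 without either control. The part of poly-A selection in the level of Hist2h2aa2 was not tested.

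Noncoding and unnamed entries numbered 4, and all 4 were slightly higher in UBXN9 1, which was the higher in 5338 of the 13230 genes tested. The long noncoding RNA 9330175E14Rik (chromosome 8, 94422898 to 94435103) had 0.324 and 0.542 CPM in the controls and 13 and 12.1 CPM in the UBXN9 libraries. It overlaps Nlrc5, the transactivator of MHC class I genes, on the opposite strand, and Nlrc5 had 3.16, 1.99, 105 and 181 CPM. Without a stated use of strand, reads of the 2 cannot be told apart. AI662270, a noncoding transcript on chromosome 11, had 0.600, 0.316, 9.57 and 8.24 CPM and overlaps Gm11427 on the same strand (0.0891, 0.0452, 4.41 and 5.53 CPM). Of the 2 entries known by identifier only, 1 had 0 counts in both controls and 4.31 and 4.20 CPM in the UBXN9 libraries, at least 66.2-fold higher against a floor of 3 counts over the control group. The other had 0.152, 0.219, 10.9 and 10.1 CPM.

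Per kilobase of exon, mean levels in UBXN9 cells ran from 0.278 CPM per kb for Nrg1 to 10.5 CPM per kb for Batf2, with a median of 1.36. On this scale Hist2h2aa2, a gene of 528 bases, stood at 6.85, Hsh2d at 6.43, Apod at 5.85, A230050P20Rik at 4.97, Sod3 at 3.72 and Hsf2bp at 3.58 CPM per kb. Gvin1, among the highest by CPM, stood at 2.48 CPM per kb over its 9005 bases of exon.

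The UBXN9 libraries differed from each other with gene length. Over the 13230 genes tested, UBXN9 2 was the higher in 7830 and UBXN9 1 in 5338, by more than 2-fold in 1156 and 175. Among the 48, UBXN9 2 was the higher in 27 and UBXN9 1 in 21, by more than 2-fold in 3 and 1 of them. The 3 were 9930111J21Rik1 (1.58 on the log2 scale), Gvin1 (1.36) and Cybb (1.01), followed by Dmp1 (0.88) and Nrg1 (0.84). At the other end stood Serpinb2 (-1.26), Hsf2bp (-0.38), Pf4 (-0.35), Islr (-0.31) and Batf2 (-0.28). The log2 ratio of UBXN9 2 to UBXN9 1 had a Spearman correlation with exon length of 0.53 over 46 genes, which share both libraries and are not independent, and of 0.43 over all genes tested.

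**Figure D4:**
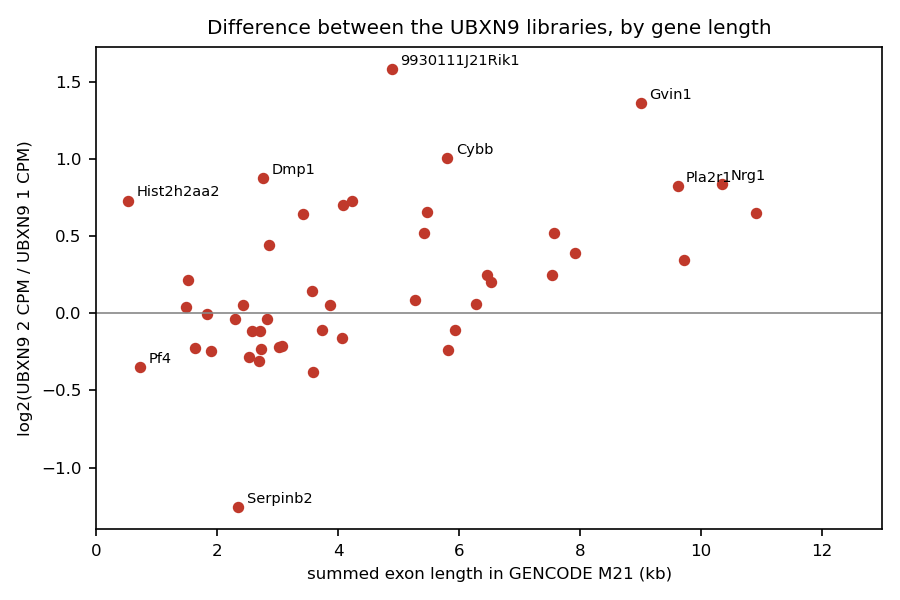
Log2 ratio of UBXN9 2 to UBXN9 1 CPM for the 46 genes with an annotated exon length, against that length in kb. Short genes lie mostly below 0 and long genes above, with Serpinb2 at -1.26 and 9930111J21Rik1 at 1.58 as the extremes.

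A position was known for 46 of the 48 genes, on 18 chromosomes and 1 scaffold. Chromosome 5 held 7 (14.6% of the 48, against 6.68% of genes tested) and chromosome 8 held 5 (10.4%, against 5.53%). Of 77 nearest tested neighbours outside the excluded families 5 rose (6.49%, beside 5.06% of all genes tested), 1 fell, and their median log2 fold change was 0.21. Olfr56, an olfactory receptor gene annotated over 9930111J21Rik1, rose 7.86-fold (2.57, 1.65, 15.0 and 16.2 CPM, edgeR adjusted p = 0.00132). Tril, a Toll-like receptor accessory gene beside Chn2, rose 5.58-fold (1.48, 1.16, 5.80 and 8.09 CPM, edgeR adjusted p = 0.00457). The other 3 calls were each lost in some alternative. Pml, the nuclear body gene beside Islr, rose 2.32-fold (edgeR adjusted p = 0.0142) and had 0.0535 without control 2 and 0.0525 with no composition factor, in a range of 1.3e-11 to 0.0535.

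Col5a3, a collagen gene beside A230050P20Rik, rose 2.24-fold (edgeR adjusted p = 0.022) and had 0.184 without control 1 and 0.117 without control 2, in a range of 7.65e-05 to 0.184. Spink2, a protease inhibitor gene beside Hopx, rose 3.47-fold (edgeR adjusted p = 0.0373) and had 0.174 without control 1 and 0.0626 with no composition factor, in a range of 3.99e-05 to 0.174. Nfatc4, a calcium-regulated transcription factor gene 34.3 kb from Ripk3, fell to 0.241 of its control level (32.2, 26.2, 6.23 and 6.92 CPM, edgeR adjusted p = 0.00175). Nfatc4 was the only lower call among the 77 neighbours outside the excluded families. The share of these neighbours called higher, 6.49%, was near the 5.06% of all genes tested, and the difference was not tested. Among the 13 neighbours from excluded families 8 rose, including Nlrc5, Trim14 at 0.796 kb from Coro2a, Gm12185, Slfn4 and Gm4070. The count of 5 among the 77 was 3 without control 1 and without control 2, and 15 without UBXN9 1 and without UBXN9 2.

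**Figure D5:**
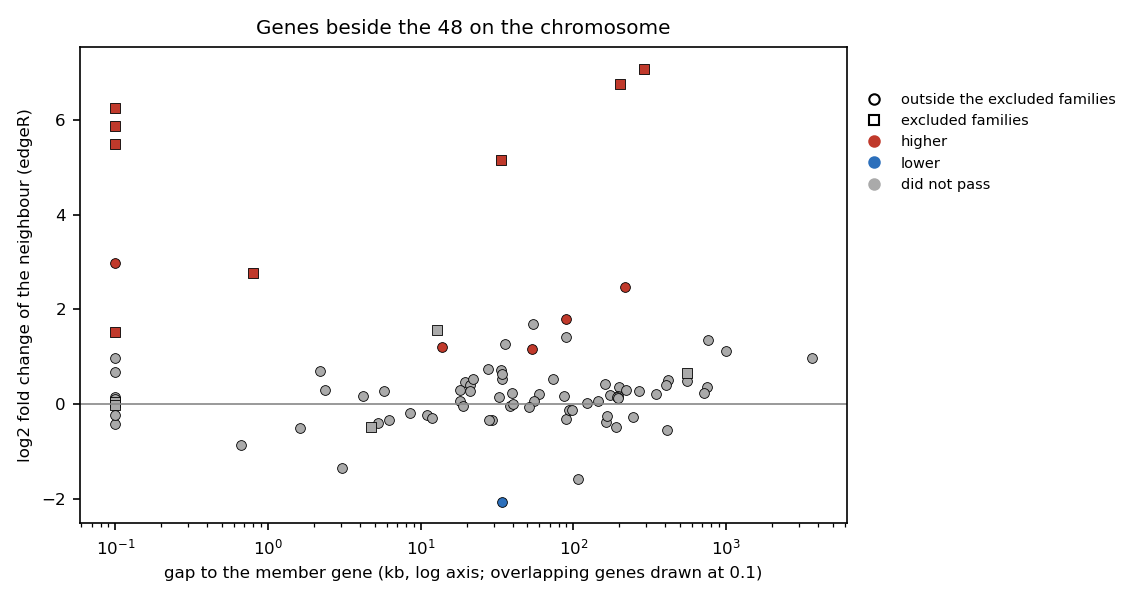
Log2 fold change (edgeR) of the nearest tested genes on each side of the 48, against their distance in kb on a log axis, with overlapping genes drawn at 0.1 kb. Squares from excluded families reach the highest values, and most circles lie near 0 at every distance.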

How the data were processed

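Total RNA of 4 LPC-HRas libraries was prepared with the TruSeq RNA kit v2 and sequenced on an Illumina HiSeq instrument, per the labels' protocols. The authors deposited 1 table of estimated counts per gene, unscaled, with 55728 entries, some of them fractions. The aligner HISAT2 2.1.0, the counter HTSeq and, as the genome build, GRCm38.p6 are named in the submitters' processing notes, while the settings, the annotation and the use of strand are not given in the sources used here. The 241 loci outside the annotation were kept out of the comparison, and GENCODE M21, which held 55227 of the 55487 annotated identifiers, gave symbols, positions and exon lengths.

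Levels are CPM by column total, from totals of 24677770, 22147475, 21814969 and 26292686 counts for control 1, control 2, UBXN9 1 and UBXN9 2. For the test, values were rounded to whole counts and fitted with edgeR 4.0.16 in R 4.3.3 (TMM, filterByExpr, quasi-likelihood F test, two-sided), with Benjamini-Hochberg adjustment over the 13230 genes that passed the filter and a threshold of 0.05. All 48 genes passed that filter, and no p is given for them because the rule used this contrast. The procedure was run on simulated counts with a fixed spread and changes drawn equally up and down. These data are not like that, so the run does not measure the error rate of the calls given here. A floor of 3 counts over a group stood in for 0 and covers counting error only. Promoters came from RefSeq and figures from matplotlib 3.10.9.

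The 48 genes and the lists were chosen with earlier results of these data known. Partner lists were written once the 48 genes were known (1 partner gene is not reported here), and the grouping by role was made after values had been seen. Named among the 48 were the 30 with the highest UBXN9 mean, those on a fixed list, the 3 nearest the thresholds and the 5 least even between the UBXN9 libraries in each direction, and others appear for their role. Outside them, up to 3 called genes of each list that holds one of the 48 and up to 10 called neighbours were named. Alternatives were RLE or no composition factors, no filter or 5 CPM in 2 libraries, DESeq2 1.42.0, a replicate block, an adjusted p of 0.01, leaving out each library, and other thresholds, windows and motifs.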

Additional observations from a re-analysis of the deposited data

Results flagged for a closer look

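Outside the annotation, 1 of the 241 unannotated loci met the same CPM thresholds as the 48 genes, a signal in data that no comparison here used. Another 3 met the thresholds turned around.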

How the results depend on the processing

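The number of genes that met the rule was 57 with TMM factors and 41 at a ceiling of 2 CPM with a floor of 4 CPM, against 48. It was 16 at a ceiling of 0.5 CPM, 17 at a floor of 5 CPM, and 55 to 87 when 1 library was left out. The turned-around rule gave 49 to 82 genes when 1 library was left out, against 41, with the highest count without UBXN9 2. Genes higher and lower numbered 669 and 315, and 1144 and 683 with no filter, 310 and 88 at an adjusted p of 0.01, and 373 to 1611 and 135 to 1318 when 1 library was left out, the lone library of a group then being taken to vary like the other group. The nearest neighbours called higher numbered 5, against 3 with no composition factor, 8 with DESeq2, 2 at an adjusted p of 0.01, 10 when 2 genes on each side were taken, and 3 to 15 when 1 library was left out. Genes of the fixed lists called higher numbered 109, and 66 at an adjusted p of 0.01. The share of promoters with the ISRE core was 13.3%, beside 3.99% of all genes with a promoter. With a longer motif that adds any base and a C it was 3.33%, or 1 gene of 30. That motif was found in 1.12% of all genes with a promoter and in 20.8% of the excluded family genes. Same-numbered libraries deviated with a correlation of -0.37 over 13230 genes, so the labels' numbers were not taken as pairs, and with a replicate block 640 genes were higher and 292 lower, 5 neighbours and 113 list genes being called higher. Under that block the adjusted p (edgeR) was 0.125 for Bid, 0.0686 for Hspb1, 0.112 for Junb and 0.171 for Relb, and of the partners of Batf2 1 was called higher and 2 lower. With control 1 paired to UBXN9 2 and control 2 to UBXN9 1, an alternative added after seeing the data, 1776 were higher and 1361 lower, and 21 neighbours and 157 list genes were called higher. The cause of these shifts was not tested. At 1 CPM a library held 21.8 to 26.3 counts of a gene, which limits every control level given here.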
